A study of Mus musculus with 4 samples.

Results

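Cholesterol synthesis was followed through 7 genes of the sterol pathway that are known targets of the transcription factor SREBP2: Hmgcs1, Idi1, Fdps, Fdft1, Sqle, Lss and Cyp51. A gene was taken into the group where the RefSeq accession of a non-control probe on the array mapped to its symbol. This gave 11 probes for 6 of the 7 genes, among 41174 probes and 31073 genes or accessions tested in all. No accession on the array matched Idi1 in the gene table used, so Idi1 is named without values. Livers came from male C57Bl/6 mice of 3 months, all carrying a mutant Wrn protein (Wrn is a RecQ helicase); treated mice had drunk water with 0.4% vitamin C from weaning on and untreated mice had not. On each of 4 arrays, 1 treated liver labelled with Cy3 was set against 1 untreated liver labelled with Cy5, in 4 pairs that the labels number as biological replicates. Both groups carry the mutation, and mice with normal Wrn were not analysed here.

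Cholesterol is built from acetyl-CoA by way of HMG-CoA, mevalonate, isoprenoids and squalene. Its synthesis in the liver is held in check by sterol feedback. When membrane sterols run low, SCAP escorts SREBP2 from the endoplasmic reticulum to the Golgi, where proteases release its active part, and this part then raises transcription of the synthesis enzymes and of genes for cholesterol uptake. INSIG proteins hold SCAP back when sterols are plentiful.

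The promoters of 3 of the measured genes are printed because these genes were grouped as SREBP2 targets, and they were searched for the letters that SREBP2 and its partner NF-Y are known to read. The RefSeq promoter table (assembly GRCm38.p6) held 4 of the 7 genes, as 300 bases from 250 before the annotated start to 50 after it. Capitals mark matches on either strand to TCACNCCAC or the looser TCACNNCA (both sterol regulatory element letters, the second overlapping the first) and to CCAAT, whose reverse strand reads ATTGG. Hmgcs1 lies at chr13:119690101-119690400 on the plus strand, Cyp51 at chr5:4104648-4104947 on the minus strand and Lss at chr10:76531355-76531654 on the plus strand.
Hmgcs1: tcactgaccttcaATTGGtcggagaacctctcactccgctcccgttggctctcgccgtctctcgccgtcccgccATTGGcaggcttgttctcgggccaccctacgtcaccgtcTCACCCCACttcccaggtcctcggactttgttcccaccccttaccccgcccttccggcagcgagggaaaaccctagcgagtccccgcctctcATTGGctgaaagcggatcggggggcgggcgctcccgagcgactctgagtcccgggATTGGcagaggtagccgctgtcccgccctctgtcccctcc
Cyp51: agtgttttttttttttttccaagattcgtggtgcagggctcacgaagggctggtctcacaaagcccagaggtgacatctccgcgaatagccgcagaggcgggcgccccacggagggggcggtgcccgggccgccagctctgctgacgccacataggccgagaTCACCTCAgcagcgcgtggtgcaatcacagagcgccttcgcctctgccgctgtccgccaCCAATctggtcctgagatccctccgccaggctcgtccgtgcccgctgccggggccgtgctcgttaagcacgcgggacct
Lss: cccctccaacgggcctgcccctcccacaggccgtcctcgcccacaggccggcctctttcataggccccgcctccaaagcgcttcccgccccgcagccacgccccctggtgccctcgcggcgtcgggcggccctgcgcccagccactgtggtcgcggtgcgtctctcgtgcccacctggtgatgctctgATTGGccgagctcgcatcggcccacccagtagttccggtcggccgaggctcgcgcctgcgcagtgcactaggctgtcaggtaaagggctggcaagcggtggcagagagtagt

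Hmgcs1 held 1 match to TCACNCCAC, beginning at position -137 relative to the start, and 4 matches to CCAAT. Cyp51 held 1 match to the looser motif, at -88, and 1 to CCAAT, at -29. Lss held 1 match to CCAAT, at -62, and none to the sterol motifs within this window. Of 32851 promoters of this length, 1.24% held TCACNCCAC, 13.8% held TCACNNCA and 37.4% held CCAAT. A match of letters is a description of the sequence and not a measured binding site.

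Each value below is a log2 ratio, the treated liver over its untreated partner, after a local background correction and a loess curve that removes the smooth dye trend over intensity on each array. A ratio of -1 is a fall to 0.5 times. Median signals of all probes were 380 to 530 in Cy3 and 813 to 962 in Cy5, against 62 to 67 and 66 to 80 on negative control spots. No array had its dyes swapped, so dye bias of a probe and a treatment effect cannot be told apart. All 4 arrays lay on 1 slide with 1 scan date. Across genes, which are not independent replicates, the ratios of replicate 2 correlated with those of replicates 1, 3 and 4 at r = 0.020, -0.15 and -0.18, whereas the other pairs of arrays had r = 0.60 to 0.78. Replicate 2 therefore stands apart, and results are given with and without it. Hepatocyte markers were present (6 of 8 listed were measured), and their summed level was 611367 to 718298 in treated and 849700 to 907513 in untreated livers, without overlap. Of these 6 markers, 2 had an unadjusted p under 0.05 in limma, both lower, as were 16.6% of all genes. For 2.54% of single genes every treated level lay below every untreated one. A sum is carried mostly by its brightest genes. The 153 genes at a mean log2 intensity of 17 or more had a median ratio of -0.30. The part of this brightness shift in the marker sums was not tested. Macrophage markers, 7 of 8 measured, had sums of 52110 to 90664 in treated and 52617 to 75395 in untreated livers. The part of these marker shifts in the results below was not tested, and in whole tissue fewer cells of a type and less RNA per cell cannot be told apart.

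No member passed the test across all genes, and no other gene did either: 0 of 31073 genes (0%) had an adjusted p under 0.05 (limma, Benjamini-Hochberg), while 8610 (27.7%) had an unadjusted p under 0.05, 16.6% lower and 11.2% higher in treated livers. Of the 6 measured members, 2 had an unadjusted p under 0.05, Cyp51 and Sqle, both lower. The members' mean log2 ratios ran from -0.48 to 0.083, 5 below 0 and 1 above, with a median of -0.18 against -0.015 over all genes tested; without loess these were -0.34 and -0.036. Array medians over the members were -0.16, -0.64, 0.14 and -0.13 on replicates 1 to 4. All 6 members were lower in the treated liver on replicate 2, 4 were higher on replicate 3, and 2 were higher on each of replicates 1 and 4. Of all 31073 genes, 14254, 14907, 14944 and 15145 were higher on replicates 1 to 4.

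**Figure D1:**
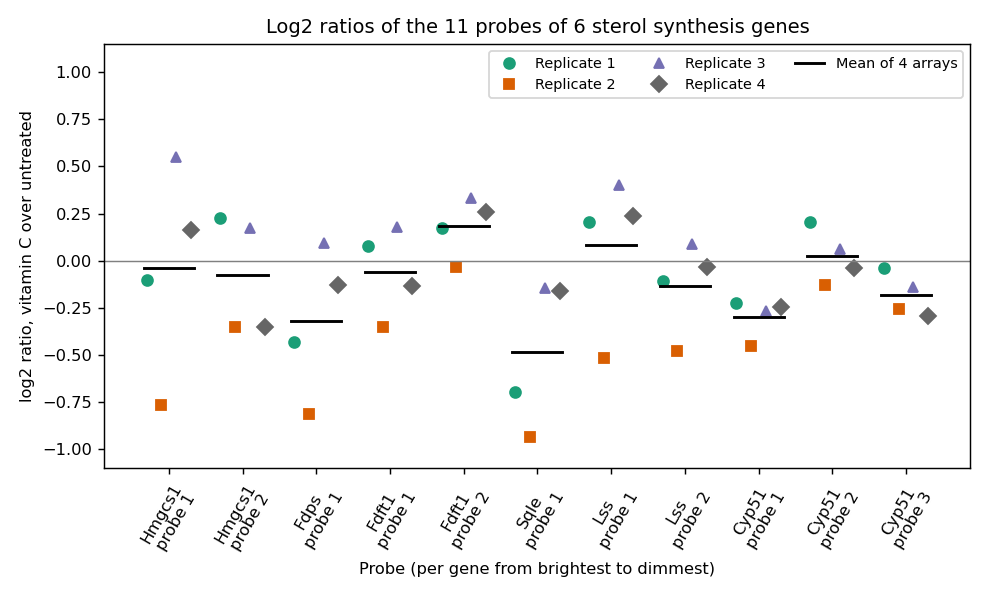
Log2 ratio of vitamin C over untreated (vertical axis) for each of the 11 probes of the 6 measured genes (horizontal axis), with 1 symbol for each of the 4 arrays and a bar at their mean. The replicate 2 square is the lowest point for the brightest probe of every gene, from -0.94 for Sqle to -0.35 for Fdft1.

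Hmgcs1 encodes the cytosolic HMG-CoA synthase, which joins acetyl-CoA and acetoacetyl-CoA. Its log2 ratios were -0.10, -0.76, 0.55 and 0.16 on replicates 1 to 4. The treated liver was thus lower in 2 pairs and higher in the other 2, from 0.589 times on replicate 2 to 1.47 times on replicate 3. The mean was -0.038 ± 0.55 (SD, n = 4; adjusted p = 0.914, limma), and 0.20 without replicate 2. A dimmer probe of the gene gave 0.23, -0.35, 0.17 and -0.35, with a mean of -0.075. At a mean log2 intensity of 16.1 Hmgcs1 is the brightest member, and its mean relative to genes of like intensity was -0.027.

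Fdps encodes farnesyl diphosphate synthase, at the branch point between sterols and the lipids that anchor proteins. Its ratios were -0.43, -0.81, 0.097 and -0.13, so that 3 of 4 treated livers were lower than their partners. The mean was -0.32 ± 0.39, a fold of 0.802 (unadjusted p = 0.0777, adjusted p = 0.217, limma). Without replicate 2 the mean was -0.15. Its unadjusted p was under 0.05 in 3 of the 16 other settings and its adjusted p in 0. Fdft1 encodes squalene synthase, the first step committed to sterols. Its ratios stayed nearer 0, at 0.077, -0.35, 0.18 and -0.14, with a mean of -0.058 ± 0.23 (adjusted p = 0.702, limma) that was 0.010 with Agilent's processed signals and 0.039 without replicate 2. The second, much dimmer probe of Fdft1 had 0.17, -0.034, 0.33 and 0.26. Its mean of 0.18 was opposite in sign (unadjusted p = 0.0433, adjusted p = 0.175, limma over all probes).

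Sqle encodes squalene epoxidase, a rate-limiting step of the later pathway. It had ratios of -0.70, -0.94, -0.14 and -0.16 and was lower in the treated liver of all 4 pairs. Replicates 1 and 2 were well below replicates 3 and 4. The mean of -0.48 ± 0.39 was the lowest of the members, a fold of 0.715 (unadjusted p = 0.0187, adjusted p = 0.146, limma), and it was -0.33 without replicate 2. Without replicate 1 the unadjusted p was 0.0761. It passed under 1 of 16 other settings, without loess (mean -0.60, adjusted p = 0.0357, limma), where 31% of all genes passed.

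Lss encodes lanosterol synthase, which closes the sterol rings. Its ratios were 0.21, -0.52, 0.40 and 0.24: 3 treated livers were higher and the one of replicate 2 was lower. The mean of 0.083 ± 0.41 (adjusted p = 0.740, limma) was -0.074 without loess. Without replicate 2 it was 0.28 and passed (adjusted p = 0.0246, limma), as 28.2% of all genes did in that fit. Its second probe had a mean of -0.13, with -0.11, -0.48, 0.089 and -0.034, so the probes disagree in sign.

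Cyp51 encodes lanosterol 14-alpha-demethylase, the first step after ring closure. Its ratios were -0.22, -0.45, -0.27 and -0.24, lower in the treated liver of all 4 pairs. They had the narrowest spread of the members. The mean was -0.30 ± 0.10 (SD, n = 4), a fold of 0.814 (unadjusted p = 0.00229, adjusted p = 0.144, limma). Its level lay between 11.72 and 11.91 on the log2 scale in treated and between 11.97 and 12.36 in untreated livers, the 1 member without overlap; 2.54% of all genes had every treated level below every untreated one. With Agilent's processed signals the mean was -0.17 (unadjusted p = 0.0938, limma). Over the other settings its adjusted p ran from 0.0184 to 0.471. It passed without replicate 2 (mean -0.24), without loess (-0.45, adjusted p = 0.0200) and in a fit of the separate channels (adjusted p = 0.0490), in which 2.84% of genes passed. The gene had 3 probes, and they disagree: a dimmer one gave -0.036, -0.26, -0.14 and -0.30 (mean -0.18 ± 0.12), and another 0.21, -0.13, 0.065 and -0.039 (mean 0.026 ± 0.14). A ratio below 0 on all 4 arrays was found for 2 of the 6 members, Cyp51 and Sqle, and for 16.1% of all genes.

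The levels of single livers show which member of each pair differed. They are log2 intensities after the distribution of mean intensity was made equal across arrays, and they carry dye and array differences that ratios do not. The untreated liver of replicate 2 had the highest untreated level for all 6 members, whereas this held for 27.1% of all genes. It reached 16.50 for Hmgcs1 against 15.77 to 16.22 in the other untreated livers, 15.88 for Fdps against 15.26 to 15.54, and 14.42 for Sqle against 13.90 to 14.09. The treated liver of replicate 2 was the lowest treated one for 3 of the 6 (Hmgcs1, Fdps and Lss), and for 30.6% of all genes. For Fdft1, Sqle and Cyp51 it was not: its Cyp51 level of 11.91 was the highest of the treated livers.

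**Figure D2:**
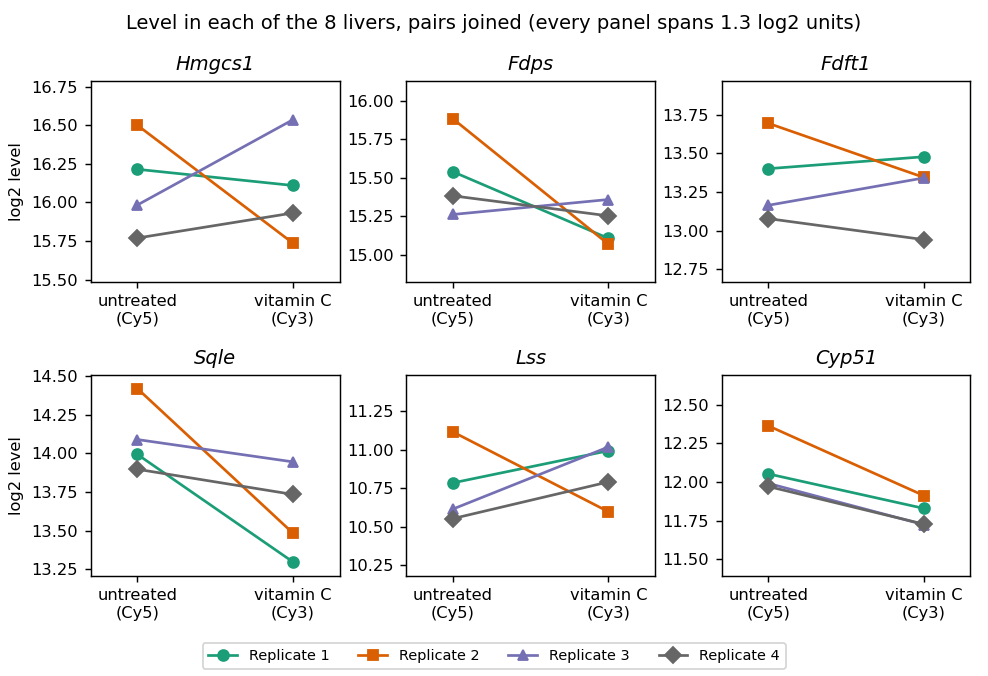
Log2 level (vertical axis) of the 6 measured genes in untreated (Cy5) and treated (Cy3) livers, with a line joining the livers of a pair on 1 array. The untreated liver of replicate 2 is the highest untreated point in every panel, and Cyp51 is the gene whose treated and untreated levels do not overlap.

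The members also varied more between pairs than most genes. The SD of the 4 ratios had a median of 0.394 over the 6 members, against 0.126 over all genes and 0.146 over the 4881 genes at a mean log2 intensity of 12 to 16. Hmgcs1, Lss, Sqle and Fdps had SDs above those of 98.5%, 95.7%, 95.2% and 95.1% of genes. Fdft1 stood at 81.5%, and Cyp51, at 39.1%, varied less than most genes. These SDs are of the brightest probes. Dimmer probes had smaller SDs for Hmgcs1 (0.32 against 0.55), Lss (0.24 against 0.41) and Fdft1 (0.16 against 0.23). Those of Cyp51 had larger ones (0.14 and 0.12 against 0.10). Replicate 2 gave the lowest of the 4 ratios for all 6 members, as for 37.8% of all genes, and replicate 3 the highest for 5 of 6, as for 19.4%. Set against the median profile of the members over the 4 arrays, Fdps was nearest (root mean square difference 0.160) and Sqle farthest (0.336).

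Among the 16 other enzymes of the pathway, all measured, 1 was higher and 3 were lower at an unadjusted p under 0.05. Of all genes, 11.2% were higher and 16.6% lower at that threshold, so these counts lie near the share of all genes. Of the 16 enzymes, 0 passed over all genes (smallest adjusted p = 0.144, limma). The median was -0.009, or -0.18 without loess, with array medians of -0.034, -0.37, 0.12 and 0.089. On replicate 2, 15 of the 16 had ratios below 0, and 14 had their lowest ratio there. Of all 31073 genes, 14907 had ratios above 0 on replicate 2, and 37.8% had their lowest ratio there. 

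The 3 lower enzymes act on the sterol rings, after Cyp51 in the pathway. Tm7sf2, a sterol C14 reductase, had ratios of -0.16, -0.39, -0.18 and -0.20 and a mean of -0.23 ± 0.11 (adjusted p = 0.144, limma), which was -0.058 with Agilent's processed signals, where its unadjusted p was 0.544. Hsd17b7, which reduces the ketone left by C4 demethylation, had -0.20, -0.78, -0.12 and -0.33, with a mean of -0.36 ± 0.29 (adjusted p = 0.150, limma), and -0.097 on a dimmer probe that was above 0 on replicates 3 and 4. Ebp, a sterol isomerase, had -0.42, -0.47, -0.12 and -0.092, with a mean of -0.27 ± 0.20 (adjusted p = 0.146, limma). On these brightest probes all 3 were lower in the treated liver of every pair. The higher one was Erg28, a scaffold of the C4 demethylation enzymes, at 0.19 ± 0.16 with a value of 0.00 on replicate 2 (adjusted p = 0.172, limma). Without loess it was 0.012 (unadjusted p = 0.896, limma), and its unadjusted p was under 0.05 in 10 of the 16 other settings. Ebp and Tm7sf2 are bright probes, at mean log2 intensities of 16.9 and 16.1. All 445 genes at 16 or more had a median of -0.15 and the 153 at 17 or more one of -0.30. Relative to the median of genes of like intensity, Ebp had a mean of -0.18 and an unadjusted p of 0.0972, above 0.05, and Tm7sf2 a mean of -0.22. Ebp was also above 0.05 with Agilent's processed signals (-0.16) and without replicate 1.

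**Figure D3:**
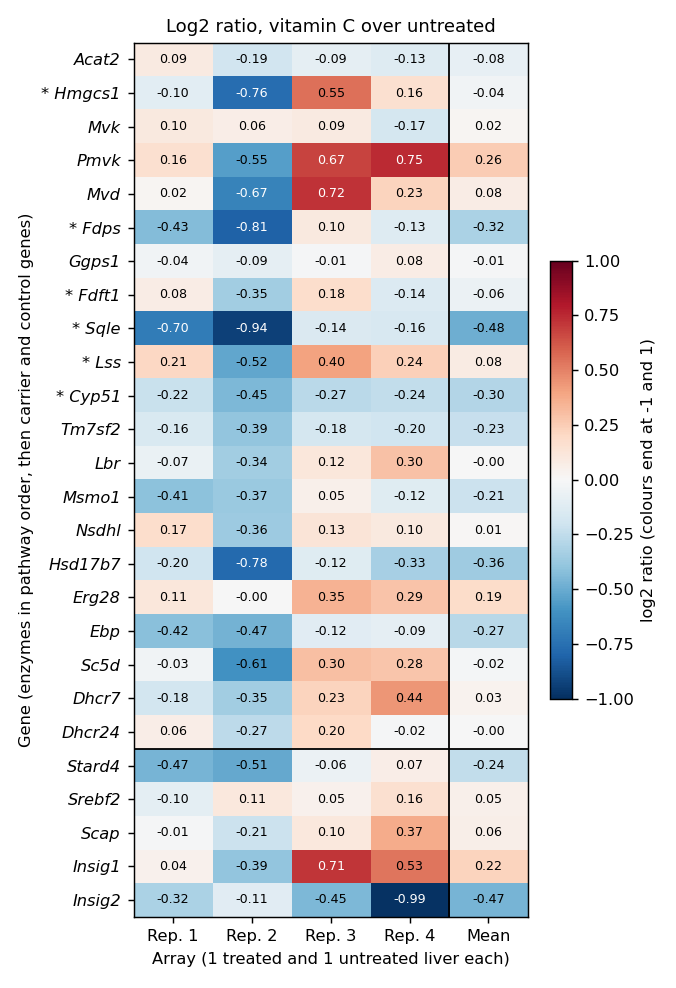
Log2 ratios of vitamin C over untreated on each of the 4 arrays and their mean (columns), for the sterol enzymes in pathway order and, under the line, a sterol carrier and control genes (rows); an asterisk marks the 6 measured members. The column of replicate 2 is below 0 for most enzymes, at -0.76 for Hmgcs1, -0.81 for Fdps and -0.94 for Sqle.

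Genes of lipoprotein cholesterol uptake and transport lay close to 0 in the median. Of these 13 genes, 1 was higher and 0 lower at an unadjusted p under 0.05, against 11.2% and 16.6% of all genes. That one was Npc2, which carries cholesterol out of lysosomes, with 0.31, 0.032, 0.39 and 0.38 and a mean of 0.28 ± 0.17 (adjusted p = 0.144, limma), or 0.16 without loess (unadjusted p = 0.109). Its partner Npc1 had a mean of 0.22 ± 0.23 (adjusted p = 0.199, limma), and Stard4, a sterol carrier that SREBP2 also induces, one of -0.24 ± 0.29 (adjusted p = 0.216, limma). The other 2 probes of Stard4, both dimmer, had means of 0.41 and 0.28, opposite in sign. Both were above 0 on all 4 arrays (unadjusted p = 0.00245 and 0.0203, adjusted p = 0.138 and 0.148, limma over all probes). The list had a median of -0.012, or -0.14 without loess and 0.14 with Agilent's processed signals.

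Genes of SREBP control gave means on both sides of 0, with a median of 0.027, or -0.081 without loess. At an unadjusted p under 0.05, 0 of 16 were higher and 2 lower, against 11.2% and 16.6% of all genes. Srebf2, the SREBP2 gene itself, had ratios of -0.098, 0.11, 0.047 and 0.16, a mean of 0.053 ± 0.11 (adjusted p = 0.561, limma). It did not share the low value of replicate 2. Scap had -0.010, -0.21, 0.10 and 0.37, a mean of 0.062 ± 0.24 (adjusted p = 0.693, limma) that was -0.13 without loess and -0.041 without replicate 4. Insig1, itself an SREBP target, was also lowest on replicate 2, with 0.039, -0.39, 0.71 and 0.53 and a mean of 0.22 ± 0.50 (adjusted p = 0.445, limma). Insig2, which has a liver transcript that insulin lowers, was below 0 in every pair: -0.32, -0.11, -0.45 and -0.99, with a mean of -0.47 ± 0.38 (adjusted p = 0.146, limma). A second probe, of another accession, gave 0.040, 0.35, -0.44 and -1.20, above 0 in 2 pairs, and with Agilent's processed signals the unadjusted p of the first was 0.0573. Rnf139, a ubiquitin ligase of the endoplasmic reticulum, was the other of the 2, at -0.25 ± 0.065 and also below 0 in every pair (adjusted p = 0.144, limma), but at -0.040 on its second probe and at -0.073 with Agilent's processed signals (unadjusted p = 0.352). Mbtps1, the site-1 protease that cleaves SREBPs, had 0.14 ± 0.14 (adjusted p = 0.223, limma).

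Genes of sterol efflux and esterification, which answer to the sterol sensor LXR or handle surplus cholesterol, lay mostly above 0. Their median was 0.25, or 0.097 without loess. At an unadjusted p under 0.05, 5 of 9 were higher and 0 lower, against 11.2% and 16.6% of all genes. None passed over all genes, and without loess Abcg1 alone of the 5 had an unadjusted p under 0.05: Lcat was then at 0.057, Nr1h2 at 0.099, Abcg5 at 0.18 and Abcg8 at 0.13. Abcg1, a sterol exporter, had 0.15, 0.23, 0.63 and 0.69 (mean 0.43 ± 0.27, adjusted p = 0.144, limma). Abcg5 and Abcg8, which together pump sterols into bile, had means of 0.32 ± 0.29 and 0.26 ± 0.26 (adjusted p = 0.162 and 0.173, limma), each with a value below 0 on replicate 2. A dimmer probe of Abcg8 was above 0 on all 4 arrays, with a mean of 0.22 (unadjusted p = 0.00436, adjusted p = 0.138, limma over all probes). Lcat, which esterifies plasma cholesterol, was at 0.17 ± 0.087, and Nr1h2, which encodes LXR-beta, at 0.26 ± 0.18 (adjusted p = 0.146 for each, limma).

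Without replicate 2, 28.2% of all 31073 genes passed, 3119 of them higher and 5634 lower. Of the 6 members 2 passed, Lss higher and Cyp51 lower. Of the other 16 sterol enzymes 2 were then higher (Pmvk and Erg28) and 2 lower (Tm7sf2 and Hsd17b7), of the 9 efflux genes 6 were higher and 0 lower, and of the 13 uptake genes 3 were higher and 0 lower. Of the 16 control genes 1 was then higher (Rnf145) and 2 were lower (Insig2 and Rnf139). Of the 13 fatty acid synthesis genes 6 were then higher and 1 lower. The median of the members was then -0.058 and that of the other enzymes 0.099.

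The fatty acid synthesis genes, which respond chiefly to the sister factor SREBP1, are given for comparison. The 13 genes had array medians of 0.36, -0.99, 0.85 and 0.51, the arrays ranking as they did for the sterol members. Of the 13, 12 had their lowest ratio on replicate 2, as had 37.8% of all genes. The median SD of their ratios was 0.998, against 0.394 for the sterol members. Me1, malic enzyme, had 0.85, -0.82, 1.54 and 0.74 (adjusted p = 0.326, limma), and Fads2, the delta-6 desaturase gene, had 0.47, -0.52, 0.68 and 0.51 (adjusted p = 0.378, limma). Acaca, one acetyl-CoA carboxylase gene, ran the other way on its brightest probe only, at -0.42, 0.23, -0.59 and -0.71 (adjusted p = 0.190, limma). Its 3 dimmer probes had means of -0.016, 0.014 and 0.073. Each of these 3 had its lowest ratio on replicate 2, and the one of mean 0.014 had 0.029, -0.75, 0.58 and 0.19. At an unadjusted p under 0.05, 0 of the 13 were higher and 0 lower, against 11.2% and 16.6% of all genes. The difference between the lists was not tested.

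**Figure D4:**
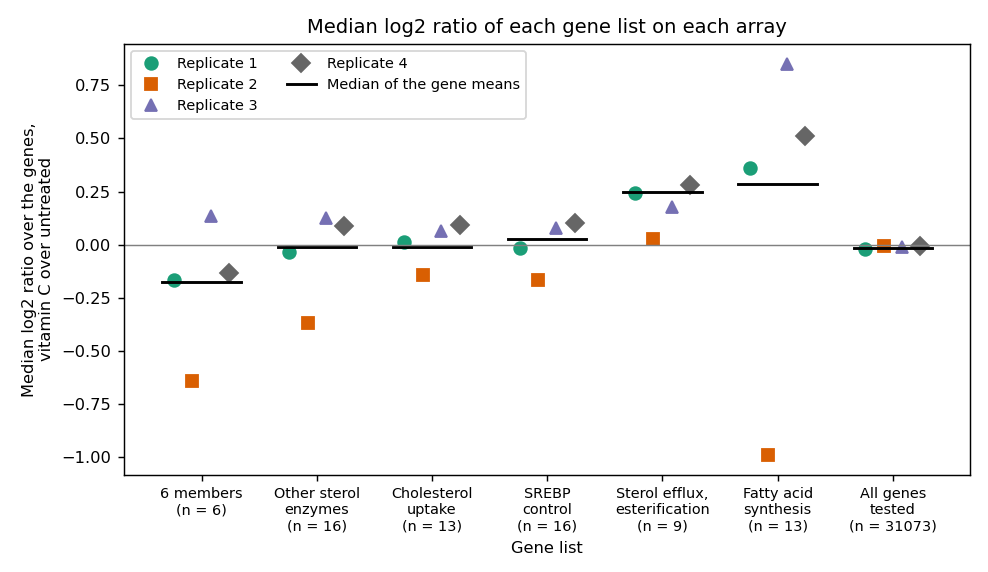
Median log2 ratio over the genes of each list (vertical axis) on each of the 4 arrays, with a bar at the median of the gene means, for the 6 members, the other lists and all 31073 genes tested (horizontal axis). Replicate 2 lies lowest for all 6 lists, at -0.64 for the members and -0.99 for fatty acid synthesis, while all genes tested stay near 0.

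Across the 16 other ways of processing, Fdps, Sqle and Cyp51 kept a mean below 0 in every one, with ranges of -0.49 to -0.15, -0.61 to -0.33 and -0.45 to -0.17. Hmgcs1 ran from -0.24 to 0.20, Fdft1 from -0.18 to 0.039 and Lss from -0.074 to 0.28. The sign of Hmgcs1 turned in 1 of the 16, that of Fdft1 in 2 and that of Lss in 2.

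**Figure D5:**
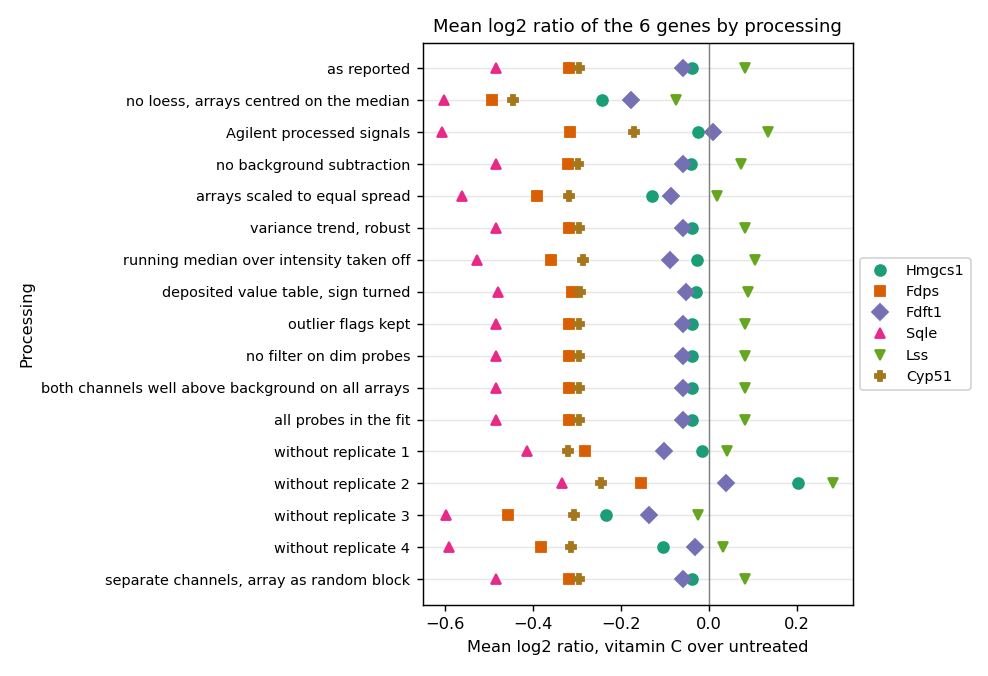
Mean log2 ratio of vitamin C over untreated (horizontal axis) for the 6 measured genes under the reported processing and 16 others (vertical axis). Sqle, Fdps and Cyp51 stay below 0 throughout, whereas Hmgcs1, Fdft1 and Lss lie on both sides of 0.

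The genes closest to the members' median profile were sought among 16785 named genes outside these lists that were well above background in both channels on all 4 arrays. By root mean square difference over the 4 arrays those among the nearest included Smarca2 (0.0744), Xpo1 (0.0871), Pikfyve (0.112) and Cyp2a5 (0.126), against a median of 0.393 for all eligible genes. Smarca2, a chromatin remodelling ATPase gene, had -0.10, -0.59, 0.014 and -0.11. Xpo1, a nuclear export receptor gene, had -0.093, -0.51, 0.099 and -0.045. These distances describe 4 arrays and say nothing of shared control.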

How the data were processed

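Spot intensity values of 4 2-colour Agilent mouse arrays were used, as the authors deposited them; per the file headers the scanner software was Agilent Feature Extraction 10.5.1.1. A deposited table of log2 values, for which the submitters' processing notes name limma without steps, correlated with log2 Cy5 over Cy3 computed here at r = 0.950 to 0.980 across probes. Its direction is thus untreated over treated, with medians near 0 and an unknown exact scale, and its sign was turned for use as an alternative. Signs given here rest on the dye labels.

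Median signals were corrected with normexp (offset 50) and normalized by loess within arrays. Outlier spots were left out and repeat spots averaged. Accessions gave 25097 of 41174 probes 1 symbol in the RefSeq table of GRCm38.p6. Each gene was represented by its brightest probe, which had to exceed background clearly in 1 channel or both on 3 arrays or more. The 4 log ratios of each gene, which carry the pairing, were tested against 0 with limma 3.58.1 (R 4.3.3, statmod 1.5.0), adjusted over all 31073 genes. An exact sign-flip test cannot go below p = 0.125 with 4 arrays. Alternatives changed the background correction, loess, scaling, variance model, outlier flags, dim-probe filter or probe choice, used the deposited table, fitted the channels apart or left out each array. The path was run on simulated data with known changes, a smooth dye curve and independent noise. Those data held no dye bias of single probes and no array set apart, so the run cannot speak to these limits. Figures used Python 3.11.15.

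Members and gene lists were chosen with earlier results of these data known. Named were all members, Srebf2, Insig1 and Scap, the 3 genes of smallest p of each list and those with an unadjusted p under 0.05. The replicates are biological per the labels. The number of arrays limits the precision. A few further genes that this rule names are not reported here, though the counts and medians of the lists include them.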

Additional observations from a re-analysis of the deposited data

How the results depend on the processing

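Each result was computed under 16 other settings. The count of genes with an adjusted p under 0.05 in limma, 0 as reported, became 9634 without loess and 883 in the fit of separate channels (array as random block), and ran from 0 to 8753 with a replicate left out, 8753 being without replicate 2. At an unadjusted p under 0.05 the count of 8610 became 14642 without loess and ran from 3115 to 13559 with a replicate left out. Of the 6 measured members, the 2 with an unadjusted p under 0.05 became 1 with Agilent's processed signals (Sqle) and 1 to 3 with a replicate left out, 1 being without replicate 1 (Cyp51). They became 3 without loess and 3 in the fit of separate channels, with Fdps added (unadjusted p = 0.0232 and 0.0243, limma). Of all genes, 14642 and 8983 were under 0.05 in these 2 fits. The members' median of -0.18 ran from -0.34 without loess to -0.058 without replicate 2, and stayed within 1 SD of the array medians under each setting. The cause of these changes was not tested. Each ratio is taken within a pair of livers, so the pairing is already used and no further replicate block could be added. Probes of the members were well above background in both channels on all 4 arrays, and no spot of theirs was saturated; the 4 arrays, 0 of them dye-swapped, set the limit.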
